A study of Mus musculus with 6 samples.

Results

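The sarcomere and contractile protein genes of mouse muscle cells form a list of 37: the chains of the thick filament, the actins, troponins and tropomyosins of the thin filament, the proteins of the Z-disc and M-band, titin, and the muscle proteins desmin, muscle creatine kinase (Ckm) and myoglobin (Mb). Every probe set annotated with exactly 1 gene symbol, that of a listed gene, was taken. This gave 54 of the 22626 probe sets other than array controls, for 35 of the 37 genes and of 12393 gene symbols in all. Mybpc1 and Neb had no such probe set and were not analysed here.

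The cells were C2C12, an established mouse myoblast line that fuses into twitching myotubes when serum is lowered. They were grown in 20% fetal bovine serum and differentiated for 5 days in 2% horse serum. They were then exposed for 16 h to 1% bovine serum albumin (BSA, 3 arrays) or to 500 µM palmitate, a saturated long-chain fatty acid bound to BSA (3 arrays). All 6 samples thus came from the same line and the same differentiation scheme, with neither an untreated culture nor another fatty acid among them. A dish of C2C12 myotubes has no nerve or load and usually keeps some unfused cells, so each array reads a mixture. The question the design poses is how palmitate alters transcript levels in these myotubes. The titles number the replicates without stating that each was its own culture. The p-values therefore reflect the spread among these 6 arrays alone, which could be technical, and precision is limited by there being 3 arrays in a group.

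In a sarcomere, myosin heads on the thick filament pull on actin in the thin filament. Calcium binds troponin C, and the troponin complex then shifts tropomyosin along actin so that the heads can attach. The Z-disc anchors thin filaments through alpha-actinin, the M-band ties thick filaments together, and titin spans from the Z-disc to the M-band. Muscle switches between embryonic, slow and fast isoforms of many of these proteins as it matures, and differentiating C2C12 cells express a mixture of them.

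Among the 45 member probe sets that passed a filter on dim signal (33 genes), limma called 2 lower and 0 higher with palmitate at an adjusted p under 0.05. These were 1 probe set each of Tpm1 and Tpm2, the alpha and beta tropomyosins, at 1.67-fold and 1.69-fold lower signal. The 2 calls are 4.44% of the members, beside 19.2% of all 13575 probe sets tested (8.63% higher and 10.6% lower). At an unadjusted p under 0.05, 0 members were higher and 5 were lower, beside 15.2% and 17.3% of all probe sets. The median log2 fold change of the members was -0.14 (range -0.94 to 0.79), beside -0.0083 over all probe sets. In a bulk sample, fewer cells of a type and less RNA per cell cannot be told apart.

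The members' differences were bounded moderately well. The 95% interval of the fold change lay within 2-fold either way for 35 of the 45 probe sets (60.0% of all probe sets) and within 1.5-fold for 15 (19.3% of all). Of the other 9 member probe sets, under the filter, Myh2 and Myl3 had no brighter probe set, so these genes have values but no test. Among the 45 tested, the arrays of the 2 groups did not overlap for 4 probe sets, each with palmitate below (19.6% of all probe sets lay that way), and for 0 with palmitate above (17.6% of all). Those 4 belonged to Tpm1, Tpm2, Tnnt1 and Actn2.

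**Figure D1:**
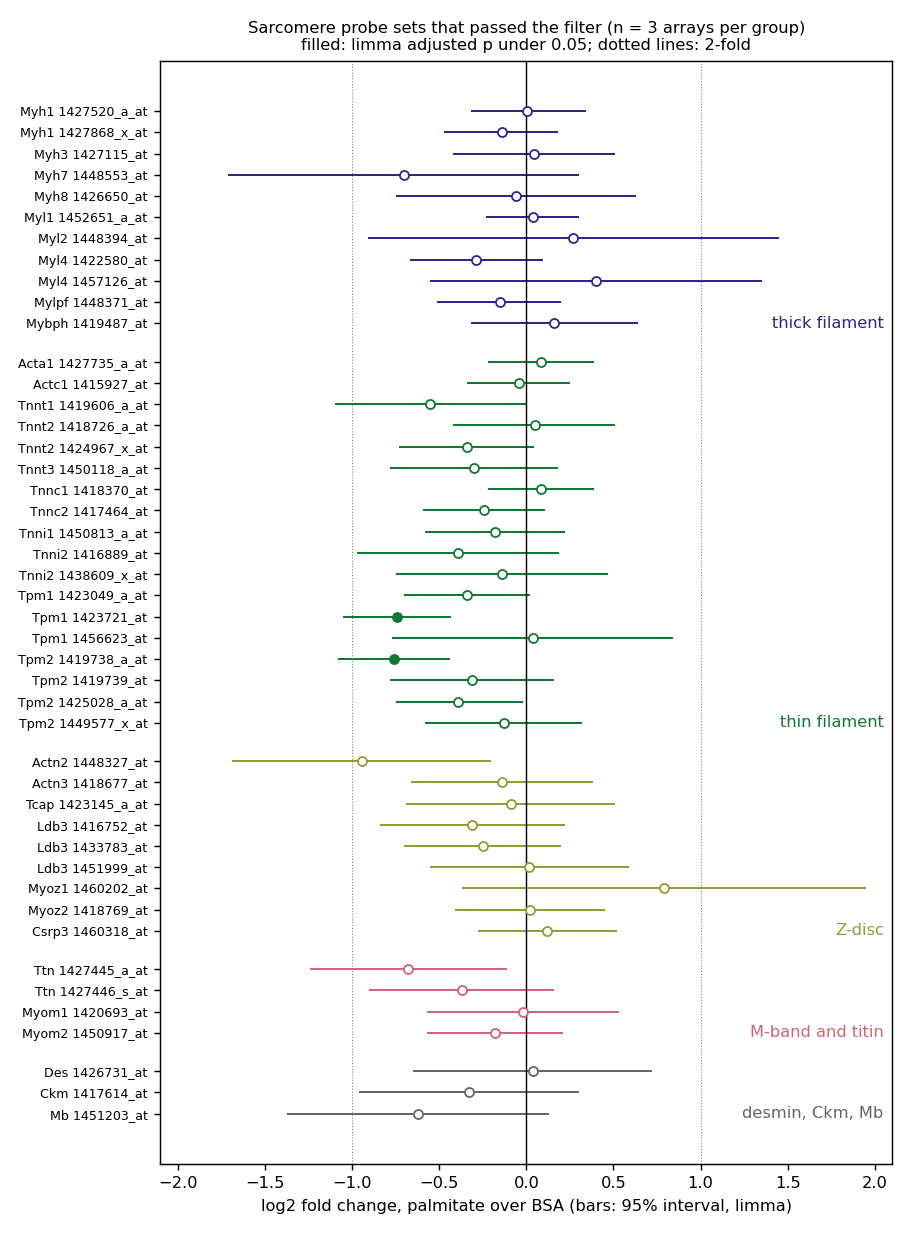
Log2 fold change of palmitate over BSA (x axis) for the 45 member probe sets that passed the filter, in rows grouped by role, with 95% intervals from limma (n = 3 arrays per group) as bars and filled points for adjusted p under 0.05. The 2 filled points, of Tpm1 and Tpm2, lie near -0.75, most other intervals cross 0, and those of Actn2, 1 titin probe set and a second Tpm2 probe set lie below 0 without passing the adjusted threshold.

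The arrays as deposited had been scaled to the same average signal, with a 2% trimmed mean close to 1500 on each. Log2 signals over all probe sets that passed the filter correlated at 0.943 to 0.959 between arrays of the same group and at 0.883 to 0.910 between groups. Spiked hybridisation controls, equal amounts of foreign RNA added to each array, averaged 12.815 ± 0.135 (SD, n = 3) on the log2 scale with BSA and 13.149 ± 0.143 with palmitate. Scaling each array to these controls in place of the average signal moved the median log2 fold change to -0.34 over all probe sets and to -0.47 over the members. Under it, 16 of the 45 members were called lower and 0 higher, beside 23.3% of all probe sets lower and 2.98% higher (26.3% in all), and the higher share of all calls went from 44.9% to 11.3%. Directions below are relative to the average signal of the array, and the small positive values of members over all 6 arrays are negative on the control scale unless stated. The 14 members added on that scale, beside the 2 called above, were 2 probe sets of Ttn and 1 each of Myh1, Myl4, Mylpf, Tnnt1, Tnnt2, Tnnt3, Tnnc2, Tnni2, Tpm1, Tpm2, Actn2 and Mb.

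BSA replicate 1 stood apart for these genes. It was the brightest of the 3 BSA arrays for 40 of the 45 member probe sets (38.0% of all probe sets) and the brightest of all 6 arrays for 35 (20.4% of all). The median member stood 0.55 log2 units, or 1.47-fold, above the mean of the other BSA arrays, against 0.010 over all probe sets. An excess of at least 1.5-fold was seen for 22 members (48.9%, beside 8.69% of all probe sets), and of at least 2-fold for 7 (15.6%, beside 1.66%). The largest was that of Mb at 2.89-fold, followed by Des at 2.69-fold, Tnni2 at 2.22-fold and Tnnt1 at 2.11-fold. Myl1 stood at 1.00-fold and the called Tpm1 probe set at 1.16-fold. The SD over BSA arrays exceeded that over palmitate arrays for 32 of 45 members (71.1%), against 6786 of all 13575 probe sets.

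**Figure D2:**
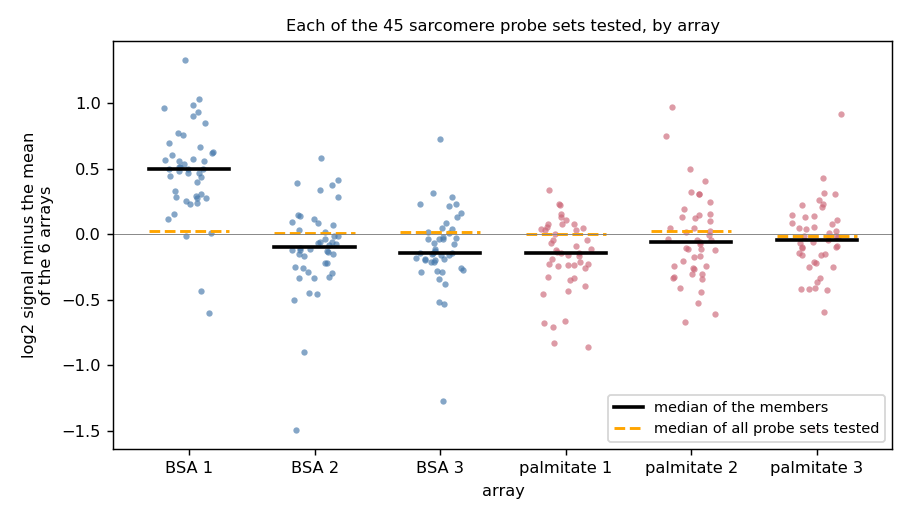
Log2 signal of each of the 45 member probe sets minus its mean over the 6 arrays (y axis), by array (x axis), with black bars for the median of the members and dashed bars for the median of all probe sets tested. The members' median is 0.50 on BSA replicate 1 and between -0.14 and -0.045 on the other 5 arrays, while the median of all probe sets stays near 0 throughout.

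Other muscle genes moved with the members on BSA replicate 1. Markers of differentiated myotubes had a median excess of 0.54 on that array and were brightest there among BSA arrays for 13 of 14 probe sets. Markers of undifferentiated or dividing myoblasts were at -0.35 (brightest there for 1 of 7) and fibroblast markers at -0.13 (2 of 10). The ratio of the 3' to the 5' probe set of Gapdh, a measure of RNA integrity and labelling, was 0.246 log2 units on this array, between 0.214 and 0.354 on the other BSA arrays. On palmitate replicate 2 this ratio was -0.203, apart from 0.192 and 0.216 on the other palmitate arrays, and the same ratio of actin was 0.237 against 0.472 to 0.599 on the other 5 arrays. The part of these differences in the members' values was not tested. Without BSA replicate 1, the same 2 probe sets of Tpm1 and Tpm2 were called lower and 0 members were called higher, of 44 tested (17.2% of all probe sets called, 8.12% higher and 9.11% lower). The members' median was then 0.023, with 24 of 44 values above 0, and 12 members changed sign without a call in either fit.

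No thick filament gene passed the test. Limma called 0 of their 11 tested probe sets, beside 19.2% of all probe sets. At an unadjusted p under 0.05, 0 were higher and 0 lower, beside 15.2% and 17.3% of all. Their median log2 fold change was 0.0067 (0.051 without BSA replicate 1). Myl1, the fast alkali myosin light chain, gave signals of 47264, 51698 and 42892 with BSA and 52345, 43866 and 49175 with palmitate. The groups overlapped throughout, and the difference was 0.036 ± 0.12 log2 units (SE, 95% interval -0.23 to 0.30). Myh3, the embryonic heavy chain, gave 14338, 8200 and 7474 with BSA and 9972, 9006 and 10715 with palmitate. All 3 palmitate values thus lay between the brightest BSA array and the other two. Its difference was 0.044 ± 0.21 over all arrays and 0.33 without BSA replicate 1 (limma adjusted p = 0.133).

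Myh8, the perinatal heavy chain, also had overlapping groups, at 1077, 488.3 and 597.0 with BSA and 719.2, 726.1 and 529.1 with palmitate (-0.062 ± 0.32). Myh1, the fast IIx heavy chain, had 2 bright probe sets. Probe set 1427520_a_at read 22514, 18918 and 20991 with BSA against 24278, 16886 and 22112 with palmitate. Their log2 fold changes were 0.0067 ± 0.15 and -0.14 ± 0.15, and the BSA and palmitate arrays overlapped in each. The adult fast heavy chains are near-identical in sequence, so reads of Myh1, Myh2 and Myh4 on such an array may include each other's transcripts. The third Myh1 probe set was under the filter at 10.3 to 23.3 with BSA and 45.1 to 109.9 with palmitate, and Myh2 was under it at 13.0 to 387.7 and 30.9 to 50.9.

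Myh7, the slow and cardiac beta heavy chain, gave 904.1, 465.0 and 561.5 with BSA and 612.2, 519.1 and 172.0 with palmitate. The lowest of the 6 was palmitate replicate 3, while the other palmitate arrays lay inside the BSA range. Its difference of -0.70 ± 0.46 had a wide 95% interval, from -1.71 to 0.30 (limma adjusted p = 0.322). Myh7 shares sequence with the cardiac alpha chain Myh6, so its signal is uncertain in the same way.

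Among the other light chains, Mylpf, the fast regulatory chain, gave 43762, 33693 and 26377 with BSA and 31122, 29670 and 30601 with palmitate. The palmitate arrays spanned a narrow range inside that of BSA (-0.15 ± 0.16, 0.031 without BSA replicate 1). Myl4, the embryonic and atrial chain, read 42982, 28625 and 24854 against 25770, 24511 and 26481 in its bright probe set (-0.29 ± 0.18), and 0.40 ± 0.44 in its dim one, which stayed above 0 on the control scale. Myl2, the slow regulatory chain, was dim and variable, at 116.9 to 389.6 with BSA and 224.1 to 475.1 with palmitate (0.27 ± 0.54). The 3 probe sets of Myl3, the slow alkali chain, were under the filter, at 27.0 to 322.1 with BSA and 16.6 to 432.2 with palmitate. Mybph, a relative of myosin binding protein C, gave 26785, 15479 and 12930 with BSA and 17900, 19097 and 21701 with palmitate. The 3 palmitate values lay above BSA replicates 2 and 3 and below replicate 1. The difference was 0.16 ± 0.22 with all arrays and 0.46 without BSA replicate 1 (limma adjusted p = 0.0502).

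The thin filament held both calls. Of its 18 tested probe sets 2 were lower and 0 higher, and 11.1% lower is close to the 10.6% of all probe sets. The median was -0.27, or -0.034 without BSA replicate 1. Its actins and troponins did not pass the test. Acta1, skeletal alpha-actin, gave 49212, 40038 and 34426 with BSA and 44285, 40256 and 45212 with palmitate. Actc1, cardiac alpha-actin, which embryonic skeletal muscle also makes, gave 22679, 17518 and 17991 against 19018, 19295 and 17769. The groups overlapped for both actins, at 0.083 ± 0.14 (95% interval -0.22 to 0.39) and -0.044 ± 0.13 (-0.34 to 0.25). The coding sequences of the alpha-actins are near-identical, and the 2 signals may not be independent.

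Of the tested troponin probe sets, that of Tnnt1, slow troponin T, had the largest difference. It gave 8085, 3908 and 3770 with BSA and 3442, 3004 and 3687 with palmitate. The groups did not overlap, but the gap between the lowest BSA and the highest palmitate array was small and BSA replicate 1 stood far above the rest. The difference was -0.55 ± 0.25 (limma adjusted p = 0.158) and -0.19 without BSA replicate 1 (adjusted p = 0.465). Tnnt3, fast troponin T, gave 16419, 8808 and 8407 against 8236, 9161 and 8630 (-0.30 ± 0.22, and 0.010 without that array). Tnni2, fast troponin I, gave 19906, 9394 and 8558 against 7763, 8656 and 10602 in its brightest probe set (-0.39 ± 0.27, and -0.0056 without it). For both genes the palmitate arrays surrounded BSA replicates 2 and 3, with BSA replicate 1 far above them all.

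BSA replicate 1 was also the brightest array for the remaining troponins. Tnnc1, slow and cardiac troponin C, gave 33889, 24784 and 26010 with BSA and 29866, 31529 and 27592 with palmitate (0.083 ± 0.14). Tnni1, slow troponin I, gave 28396, 18267 and 16667 against 16390, 18685 and 19375 (-0.18 ± 0.18). Tnnc2, fast troponin C, gave 27295, 20967 and 17246 against 17852, 17639 and 19150 (-0.24 ± 0.16). None of the 3 passed the test, and each group overlapped the other. Tnnt2, the cardiac and embryonic troponin T, had probe sets at 0.048 ± 0.21 and -0.34 ± 0.18, and the second Tnni2 probe set was at -0.14 ± 0.28.

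Tropomyosin is the coiled-coil rod along actin that blocks or exposes the myosin sites. In the called Tpm1 probe set (1423721_at), signals were 7967, 6782 and 6936 with BSA and 4121, 4661 and 4162 with palmitate. Every palmitate array was below every BSA array by a wide gap. The means were 7229 ± 644.1 and 4315 ± 300.7 (SD, n = 3 each), a log2 fold change of -0.74 ± 0.14 (SE, 95% interval -1.05 to -0.43, limma adjusted p = 0.00367). Leaving out any array kept it between -0.80 and -0.67, and its adjusted p over all alternatives ran from 0.000455 to 0.0228.

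In the called Tpm2 probe set (1419738_a_at), signals were 21387, 18179 and 16869 with BSA and 10518, 9988 and 12910 with palmitate. Again the groups were well separated, with BSA replicate 1 the highest. The means were 18812 ± 2325 and 11139 ± 1557 (SD, n = 3 each), a log2 fold change of -0.76 ± 0.15 (SE, 95% interval -1.08 to -0.44, limma adjusted p = 0.00383). Leaving out any array kept it between -0.87 and -0.66, and its adjusted p over all alternatives ran from 9.3e-05 to 0.0324. Without BSA replicate 1 the log2 fold changes of the 2 probe sets were -0.67 for Tpm1 and -0.66 for Tpm2.

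The other probe sets of these genes did not pass. For Tpm1 they read -0.34 ± 0.17 (1423049_a_at) and 0.036 ± 0.37 (1456623_at, a dim probe set at 282.6 to 639.6). For Tpm2 they read -0.31 ± 0.22 (1419739_at), -0.39 ± 0.17 (1425028_a_at) and -0.13 ± 0.21 (1449577_x_at). The tropomyosin genes make many isoforms by alternative promoters, exons and ends, in muscle and in other cells, and which isoforms each probe set reads was not determined here. The called probe set was set against each other one of its gene, array by array, a comparison chosen after the values were seen. As the called probe set had the lowest log2 fold change of its gene, each difference had to lie below 0. The differences thus do not show that the probe sets of a gene changed unequally. The 5 differences of log2 fold change ran from -0.37 to -0.78, and none passed an exact two-sided permutation test (p = 0.1 to 0.3, all 0.3 after Benjamini-Hochberg adjustment, where 3 arrays against 3 cannot go below 0.1). In 1 of the 5, that of Tpm1 against 1423049_a_at at -0.40, the groups did not overlap.

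**Figure D3:**
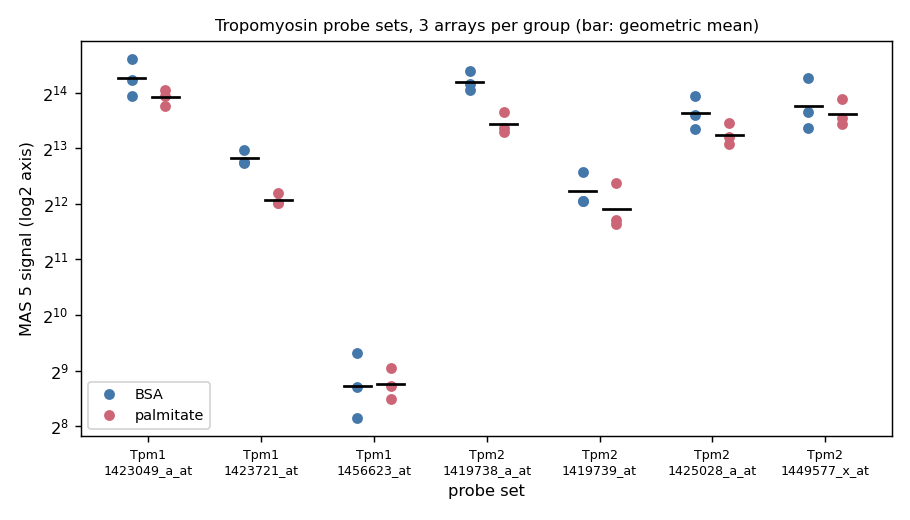
MAS 5 signal on a log2 axis (y axis) for every tested Tpm1 and Tpm2 probe set (x axis), each point 1 array of BSA or palmitate and each bar the geometric mean of 3 arrays. Only 1423721_at (Tpm1) and 1419738_a_at (Tpm2) have all palmitate points below all BSA points.

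The promoter sequences of both tropomyosins are shown because theirs were the member genes called, and those of the sarcomeric actins because those genes, the partners of tropomyosin in the filament, did not pass the test. They are from RefSeq (GRCm38.p6), each 300 bases from 250 before to 50 after the annotated start, printed 5′ to 3′ on the gene's own strand, which is the minus strand for all 4. Tpm1 lies at chr9:67049164-67049463, Tpm2 at chr4:43523505-43523804, Actc1 at chr2:114052826-114053125 and Acta1 at chr8:123894726-123895025. Capitals mark matches to the E-box CANNTG, the site of MyoD-family factors, and to the CArG box, the site of serum response factor.
Tpm1: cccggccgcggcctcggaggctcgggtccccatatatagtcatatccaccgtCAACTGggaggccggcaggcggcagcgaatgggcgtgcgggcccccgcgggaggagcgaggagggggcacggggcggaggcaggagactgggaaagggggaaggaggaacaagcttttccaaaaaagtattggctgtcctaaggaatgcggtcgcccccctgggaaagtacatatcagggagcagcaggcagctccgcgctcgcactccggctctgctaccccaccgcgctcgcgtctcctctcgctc
Tpm2: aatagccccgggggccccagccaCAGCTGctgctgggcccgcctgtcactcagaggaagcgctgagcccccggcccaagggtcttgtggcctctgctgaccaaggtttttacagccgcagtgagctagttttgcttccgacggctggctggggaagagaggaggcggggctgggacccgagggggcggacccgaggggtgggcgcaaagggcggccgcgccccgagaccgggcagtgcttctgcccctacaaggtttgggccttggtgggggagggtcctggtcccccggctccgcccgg
Actc1: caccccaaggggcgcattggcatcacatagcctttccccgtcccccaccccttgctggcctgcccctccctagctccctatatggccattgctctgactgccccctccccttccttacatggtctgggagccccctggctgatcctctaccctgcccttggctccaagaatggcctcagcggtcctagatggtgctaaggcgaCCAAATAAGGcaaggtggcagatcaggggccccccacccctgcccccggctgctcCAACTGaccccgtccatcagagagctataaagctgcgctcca
Acta1: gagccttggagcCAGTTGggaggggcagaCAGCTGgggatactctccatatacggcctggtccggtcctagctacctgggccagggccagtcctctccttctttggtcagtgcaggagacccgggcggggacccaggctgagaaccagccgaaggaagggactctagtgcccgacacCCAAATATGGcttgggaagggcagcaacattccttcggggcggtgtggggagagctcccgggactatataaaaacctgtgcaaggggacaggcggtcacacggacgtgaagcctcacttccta

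Each of the 4 windows holds an E-box, and the windows of Acta1 and Actc1 also hold a CArG box, while no CArG box match lies in those of Tpm1 and Tpm2. Across the members, 30 of the 37 genes matched 38 promoters. An E-box was found in 33 of these (86.8%, beside 72.3% of all 32851 promoters), a CArG box in 6 (15.8%, beside 1.63%) and a MEF2 site in 4 (10.5%, beside 3.19%). The CArG box promoters belonged to Acta1, Actc1, Ldb3, Myl3 and Myom1, and the MEF2 promoters to Myh1, Myh8, Myoz2 and Ttn. Matches to different motifs do not overlap in the 4 windows shown. These are letter matches, the motifs read the same on either strand, and no match says only that the letters are absent from the window.

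The Z-disc genes had 9 tested probe sets, of which 0 were called (19.2% of all probe sets) and 1 had an unadjusted p under 0.05 (32.5% of all). Their median was -0.087, and 0.14 without BSA replicate 1. The member with an unadjusted p under 0.05 was Actn2, alpha-actinin 2, which crosslinks thin filaments at the Z-disc. It gave 977.4, 507.7 and 581.9 with BSA and 262.5, 375.7 and 411.4 with palmitate. The groups did not overlap, and the difference was -0.94 ± 0.34 (95% interval -1.69 to -0.20, limma adjusted p = 0.0758). Without BSA replicate 1 it was -0.66 (adjusted p = 0.264), and on the control scale -1.28 (adjusted p = 0.0175). Actn3, the fast fibre alpha-actinin, gave 16529, 8012 and 8094 with BSA and 8280, 10091 and 9624 with palmitate (-0.14 ± 0.24, and 0.21 without that array).

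The remaining Z-disc proteins overlapped between the groups. Csrp3, muscle LIM protein, a mechanosensing adaptor, gave 5336, 3428 and 3879 against 4804, 4015 and 4720 (0.12 ± 0.18). Myoz2, calsarcin 1, which binds calcineurin at the slow Z-disc, gave 7531, 4807 and 4253 against 5711, 5244 and 5346 (0.019 ± 0.20). Its fast relative Myoz1 was dim and ragged in its tested probe set, at 582.3, 168.4 and 480.1 with BSA and 290.9, 934.3 and 898.2 with palmitate. That difference, 0.79 ± 0.53, was the highest of the 45 tested member probe sets, with a 95% interval from -0.37 to 1.95, and stayed at 0.46 on the control scale. Tcap, telethonin, which caps titin at the Z-disc, was at -0.087 ± 0.28, and the 3 probe sets of Ldb3 (ZASP, an alpha-actinin binding scaffold) were at -0.31 ± 0.24, -0.25 ± 0.21 and 0.017 ± 0.26.

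Titin, the giant spring that sets sarcomere length, had 2 probe sets. The brighter gave 4773, 3913 and 2937 with BSA and 1692, 2265 and 3512 with palmitate. Palmitate replicates 1 and 2 were below all BSA arrays, while replicate 3 lay inside the BSA range. The difference was -0.68 ± 0.26 (95% interval -1.24 to -0.11, limma adjusted p = 0.0895). Without palmitate replicate 3 it was -0.96 and was called (adjusted p = 0.0211), and without BSA replicate 1 it was -0.51 (adjusted p = 0.225). The second probe set gave 2595, 2761 and 1810 against 1945, 1300 and 2384 (-0.37 ± 0.24). Myom1 and Myom2, the myomesins that bridge thick filaments at the M-band, were at -0.021 ± 0.25 and -0.18 ± 0.18. Over the 4 tested probe sets of titin and the M-band, 0 were called (19.2% of all probe sets). The brighter of titin, 1 of the 4, had an unadjusted p under 0.05 (32.5% of all). Their median was -0.27.

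In their tested probe sets, the proteins that surround the sarcomere carried the largest median excess on BSA replicate 1. Desmin, the intermediate filament that links neighbouring Z-discs, gave 19724, 7530 and 7152 with BSA and 9219, 12924 and 9636 with palmitate. All 3 palmitate arrays were above BSA replicates 2 and 3, and all were below replicate 1. The log2 fold change was 0.037 ± 0.31 with all arrays and 0.51 without BSA replicate 1 (limma adjusted p = 0.952 and 0.0557). A dim second desmin probe set, under the filter, read 185.2, 304.8 and 215.3 with BSA and 233.1, 244.1 and 337.1 with palmitate. There BSA replicate 1 was the lowest array.

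Myoglobin, the oxygen store of muscle, gave 3664, 1337 and 1198 with BSA and 1255, 1178 and 1097 with palmitate. Apart from BSA replicate 1 all arrays lay between 1097 and 1337, and the difference moved from -0.62 ± 0.34 to -0.11 without it (adjusted p = 0.239 and 0.770). Its dim second probe set, under the filter, read 167.4, 183.1 and 189.5 against 51.0, 39.7 and 165.1. Ckm, which regenerates ATP at the M-band, gave 4889, 2328 and 2460 against 1713, 2993 and 2753 (-0.33 ± 0.29, and 0.014 without BSA replicate 1). Of these 3 tested probe sets 0 were called, beside 19.2% of all probe sets.

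**Figure D4:**
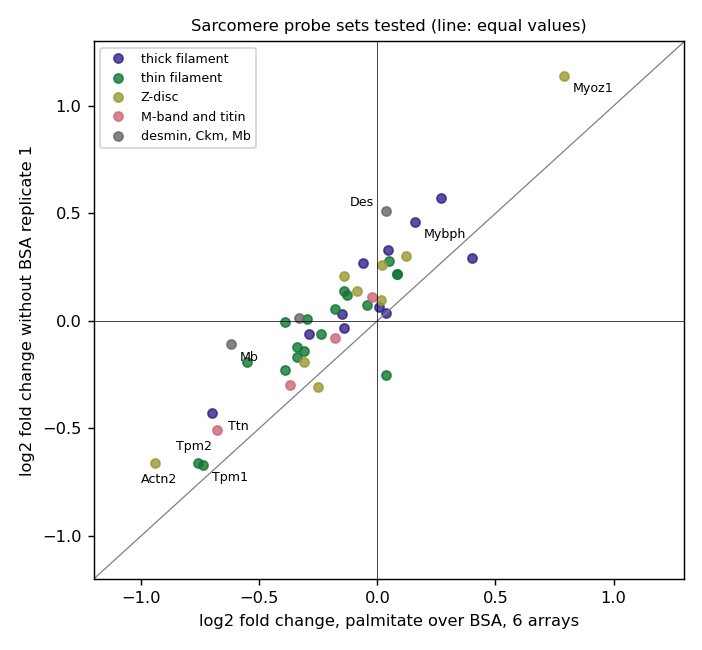
Log2 fold change of palmitate over BSA from all 6 arrays (x axis) against the value without BSA replicate 1 (y axis) for the tested member probe sets, coloured by role, with the line of equal values. Most points lie above the line, Des at 0.037 and 0.51 and Mb at -0.62 and -0.11 among them, while Tpm1 (-0.74 and -0.67) and Tpm2 (-0.76 and -0.66) lie close to it.

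Grouped by isoform, the members showed no class with a call, but Tpm1 and Tpm2, the genes called, had been placed in no class. The embryonic or cardiac-type isoforms (Myh3, Myh8, Actc1, Tnnt2, Myl4) had 7 tested probe sets with a median of -0.044. The slow isoforms had 6, with a median of -0.081, and the fast isoforms 10, with a median of -0.14. Limma called 0 in each class, beside 19.2% of all probe sets, and 0 in each had an unadjusted p under 0.05, beside 32.5% of all. The classes are small, and no result about a class is read from these counts. Without BSA replicate 1 the medians were 0.27, 0.053 and 0.034.

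Whether related isoforms, in most pairs a slow and a fast one, changed unequally was read from the ratio of 2 genes within each array. In 8 pairs both members passed the filter. Actn2 and Actc1 are not among the slow isoforms, so their pairs do not set slow against fast. The ratio of Actn2 to Actn3 was lower with palmitate by the widest margin, at -1.03, -0.79 and -0.60 against -0.13, -0.027 and 0.15 with BSA, as log2 ratios centred on the BSA mean. The groups did not overlap, and the difference of -0.81 reached the smallest p an exact two-sided permutation test allows here (p = 0.1, 0.4 after adjustment over the 8 pairs). Tnnt1 over Tnnt3 differed by -0.25, also with p = 0.1 in the exact test and 0.4 adjusted, and the groups did not overlap. For Tnnc1 over Tnnc2 the difference was 0.32 (exact p = 0.2) and for Tnni1 over Tnni2 0.21 (exact p = 0.3), so the slow member was not on the same side in every pair. Actc1 over Acta1 differed by -0.13 (exact p = 0.4), Myl2 over Mylpf by 0.43 (0.5), Myoz2 over Myoz1 by -0.77 (0.4) and Myh7 over Myh1 by -0.56 (0.7). The last turned to 0.084 without palmitate replicate 3. With 3 arrays against 3, none of these tests could reach 0.05. The pair of Myl3 and Myl1 was not tested, because Myl3 was under the filter.

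**Figure D5:**
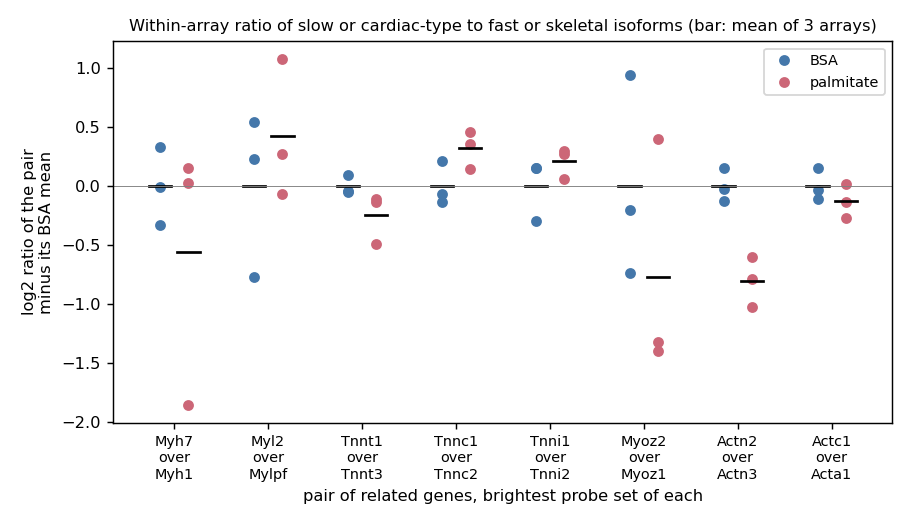
Log2 ratio within each array of pairs of related genes, minus the pair's mean over the BSA arrays (y axis), by pair (x axis), each point 1 array and each bar a group mean of 3. In the ratio of Actn2 to Actn3 the 3 palmitate points lie between -1.03 and -0.60, below the 3 BSA points, and the ratios of Myh7 to Myh1 and Myoz2 to Myoz1 scatter widely within groups.

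Other genes of the sarcomere and its upkeep, outside the 37, were called in both directions, more often higher. Of 46 listed, 25 genes with 43 probe sets were tested. Of these, 7 probe sets of 5 genes were higher and 2 of 2 genes lower, with a median of 0.12. Their share called in either direction was 20.9%, beside 19.2% of all probe sets (8.63% higher and 10.6% lower). Ankrd1, a stretch-responsive repressor that binds titin, gave 21425, 19157 and 14794 with BSA and 28239, 31225 and 32674 with palmitate. The groups were well apart, at 0.75 ± 0.15 (limma adjusted p = 0.00451). The higher calls also took in Cryab, the small heat shock protein that protects desmin and actin (0.68 ± 0.17 and 0.60 ± 0.14), and Flnc, the muscle filamin of the Z-disc (0.89 ± 0.24). The others were Synpo2, an actin-bundling partner of filamin (0.84 ± 0.20), and 1 of 5 tested Tpm3 probe sets, of a tropomyosin of slow muscle and of other cells (0.62 ± 0.17, the others from -0.40 to 0.083). All 7 higher calls ended when arrays were scaled to the hybridisation controls (adjusted p from 0.068 to 0.396), though their values stayed above 0, and 0 of the 43 were then higher and 5 lower. Without BSA replicate 1, 10 were higher and 2 lower and the median was 0.26. The added calls, named after their values were seen, were Nrap, a thin filament scaffold (0.48 ± 0.30 over all arrays, 0.85 without), Ankrd2 (0.58 ± 0.29 and 0.94), a relative of Ankrd1, and Xirp1 (0.32 ± 0.25 and 0.66), an actin-binding repeat protein. Their limma adjusted p without that array was 0.0285, 0.0128 and 0.0306.

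The calls of Flnc and Synpo2 also ended without BSA replicate 3 (adjusted p = 0.0561 and 0.0519), and those of both Cryab probe sets without BSA replicate 2 (0.0773 and 0.0538). That of the second Cryab probe set ended without palmitate replicate 1 or 3 (0.053 and 0.0594) as well. The Tpm3 call ended without BSA replicate 2 or 3 or palmitate replicate 2 or 3 (up to 0.109). The second Ankrd1 call ended without palmitate replicate 1 (0.0535), and Flnc's also without palmitate replicate 2 or 3 (0.0556 and 0.0618). With no intensity trend in the fit, the calls of Flnc (0.0739), the second Ankrd1 probe set (0.062), both Cryab probe sets (0.0707 and 0.0606) and Tpm3 (0.0521) ended. The lower calls were Myot, myotilin, a Z-disc crosslinker (-0.90 ± 0.22, limma adjusted p = 0.0142), and 1 of 6 tested Pdlim5 probe sets (-0.67 ± 0.21, adjusted p = 0.0432, the others from -0.16 to 0.58). Myot gave 940.2, 1111 and 1103 with BSA and 581.2, 538.9 and 569.1 with palmitate. Its call ended without BSA replicate 2 or 3 (adjusted p = 0.0619 and 0.0547), and that of Pdlim5 without any array but BSA replicate 1 (up to 0.168).

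The cytoskeleton of non-muscle and smooth muscle cells, which unfused cells also express, had 7 of 33 tested probe sets lower and 0 higher by limma (21.2% lower, beside 10.6% of all probe sets, and 1 higher at an unadjusted p under 0.05), with a median of -0.19. Myl9, the regulatory light chain of non-muscle and smooth muscle myosin, gave 4938, 3503 and 3476 with BSA and 1675, 1691 and 1350 with palmitate. This fell by 1.32 ± 0.19 on the log2 scale (limma adjusted p = 0.000569). Cnn2, a calponin, Tagln, transgelin, and Mylk, myosin light chain kinase, were lower by the same test, at -0.98 ± 0.20, -0.83 ± 0.17 and -1.31 ± 0.29. One Cald1 probe set, of the actin-binding caldesmon, was lower at -0.66 ± 0.16, and its call ended without palmitate replicate 3 (adjusted p = 0.0526). The remaining calls, named after their values were seen, were of Tagln2 (-0.67 ± 0.18, limma adjusted p = 0.0227) and Acta2, smooth muscle actin (-0.40 ± 0.12, adjusted p = 0.0382). The Tagln2 call ended under 5 alternatives, among them leaving out BSA replicate 2 or 3 or palmitate replicate 1 or 2 (up to 0.0856), and its other tested probe set was at 0.42 ± 0.15 (adjusted p = 0.0728). The Acta2 call ended under 10, among them leaving out BSA replicate 1 or 2 or any palmitate array (up to 0.152). Tropomyosin genes are used in this cytoskeleton as well as in the sarcomere, and the part of either in the Tpm1 and Tpm2 signals was not tested.

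Genes listed as markers of cell types were read as well, and 10.6% of all probe sets were called lower beside them. All cultures were of the C2C12 line, and a lower marker list does not show that cells of another type were present. Of 14 tested myotube marker probe sets 4 were lower: 1 of Cav3, the muscle caveolin, 2 of Mef2c, a muscle transcription factor, and 1 of Atp2a1, the fast calcium pump. Without BSA replicate 1 only that of Cav3 was lower. Both Mef2c calls ended without palmitate replicate 3 too (adjusted p = 0.0568 and 0.0664), that of Atp2a1 without any array but BSA replicate 3 (up to 0.105), and 1 of Mef2c without BSA replicate 2 or palmitate replicate 1 (0.058 and 0.0772). The summed signal of this list was 69930 to 98105 with BSA and 65854 to 70818 with palmitate. Myog, the transcription factor that drives fusion, was at -0.019 ± 0.16. The list for undifferentiated or dividing myoblasts had 5 of 7 lower, with sums of 28936 to 34976 and 15389 to 16024. Of these 5, 4 were of Mki67, Top2a, Ccna2 and Cdk1, genes of dividing cells of any type, and 1 was of Myod1, a myogenic transcription factor (-1.33 ± 0.16). Myf5, the other tested lineage gene, was at -0.24 ± 0.28 (limma adjusted p = 0.603), and Pax7 was under the filter. Fibroblast markers were lower in 10 of 10, with sums of 129424 to 151899 and 32008 to 39158. Smooth muscle markers were lower in 2 of 3 (Tagln and Acta2), or 1 of 3 without BSA replicate 1, when the Acta2 call ended. Tagln and Acta2 were also counted in the cytoskeleton list above. Of the cardiac markers only Nppb passed the filter, at 1.28 ± 0.41 (called higher, but not without BSA replicate 1 or on the control scale). Every signal in the data was above 0, so a value above 0 does not show that a marker was expressed. The part of the makeup of the cultures in the members' values was not tested.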

How the data were processed

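Signal intensities of Affymetrix mouse 430A 2.0 arrays were used as deposited by the authors, 1 linear-scale value per probe set. Per the submitters' processing notes, the tool was MAS 5. Its settings are not given in the sources used here. Of 22690 probe sets, 64 controls were left out. Gene names came from the platform annotation in GEO: 20380 probe sets had 1 symbol, 691 several and 1555 none, and RefSeq updated 0 symbols.

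Signals were log2 transformed, with no pseudocount. A filter at the 40th percentile of mean signal (267.1) kept 13575 probe sets, which were tested two-sided with limma 3.58.1 in R 4.3.3 (lmFit, eBayes with an intensity trend) with Benjamini-Hochberg adjustment over all of them and a threshold of 0.05. Intervals are from the moderated fit (residual df 4, prior df 7.98). Pairs were tested by exact permutation in Python 3.11.15 with scipy 1.17.1, on the brightest probe set of each gene.

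The named genes were all members, and up to 5 genes with the smallest p in each direction from each other list. Members and lists were chosen with earlier results of these data known. Alternatives were other scalings, filters, a pseudocount of 100, no trend, a replicate block and leaving out each array. Correlations of same-numbered arrays' deviations were -0.233, -0.133 and 0.00914, so the numbers were not taken to pair arrays. On simulated data with 200 probe sets changed by 1.5-fold, 2-fold or 4-fold, 4.78%, 41.5% and 84.1% were recovered, with 4.89% false calls. Far fewer probe sets changed there than the 2609 called in the data. The adjusted threshold depends on that share, so these rates need not hold for the data. Neither detection calls nor scan dates were used, so no batch was examined.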

Additional observations from a re-analysis of the deposited data

How the results depend on the processing

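The calls of Tpm1 and Tpm2 held under every alternative run. The number of member probe sets called was 2 under each except hybridisation control scaling, with 16 lower (median -0.47), and leaving out palmitate replicate 3, with 3 (Ttn added). Over all probe sets, 2609 were called, between 2039 and 2680 with other scalings except that to the controls (3573), filters, a pseudocount or no intensity trend, and between 1575 (without BSA replicate 2) and 2339 when an array was left out. With the replicate block 1973 were called, 855 higher and 1118 lower, and the same 2 members. The members' median ran from -0.27 to 0.023 when an array was left out. The log2 ratio of Myh7 to Myh1 ran from -0.92 to 0.084, the positive value without palmitate replicate 3, and the cause was not tested. In the other sarcomere genes, the call of Pdlim5 ended under 11 alternatives and that of Tpm3 under 7. The 95% interval excluded a change of 1.5-fold or more for 15 of the 45 tested members, and for the other 30 a change of that size in at least 1 direction lies within it.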

Other observations

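Probe set 1448554_s_at carries the symbols of both Myh7 and Myh6, the beta and alpha cardiac myosin heavy chains, and was not counted among the members. It gave 395.5, 46.5 and 264.2 with BSA and 344.9, 529.8 and 465.1 with palmitate, a log2 fold change of 1.38 ± 0.68 (SE, n = 3 arrays per group, limma adjusted p = 0.187). Its value is above 0 where that of the Myh7 probe set is -0.70 ± 0.46, and neither passed the test. The second probe set with both symbols, 1448827_s_at, was under the filter at 3.9 to 32 over the 6 arrays. Myh4, the fast IIb heavy chain outside the member list, gave 690.1, 404.5 and 763.6 with BSA and 392.7, 357.0 and 612.4 with palmitate (-0.44 ± 0.34, limma adjusted p = 0.412).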
